A study of Mus musculus with 5 samples.

Results

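The genes described here are 6 contractile and cytoskeletal genes of smooth muscle, Acta2, Actg2, Tagln, Cnn1, Myh11 and Des, measured in mouse lung after interleukin-13 (IL-13) or saline. They were taken as every probe set (the set of short oligonucleotides that together read 1 transcript) whose platform annotation gives exactly 1 gene symbol and that symbol is one of the 6 or an older synonym. Each gene had 1 such probe set, so there were 6 of 12422 probe sets, and all 6 passed the filter on dim values and were among the 7811 probe sets tested. The samples were 5 arrays of total RNA from A/J mice, labelled as lung. Saline was given into the trachea for 2 arrays, whose titles carry the numbers 6 and 48, and IL-13, a cytokine of type 2 immunity, likewise for 3 arrays, numbered 6, 18 and 48. The unit of these title numbers is not given in the labels, nor are the age of the mice and the number of animals behind an array. Each array is named here by its treatment and title number, and each combination has 1 array, so the p-values reflect only how far these arrays spread, which may be technical and includes the title number.

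Smooth muscle encircles the airways and the blood vessels of the lung and narrows them when it contracts. Calcium acts through calmodulin and myosin light chain kinase to let smooth muscle myosin pull on filaments of smooth muscle actin, while calponin, transgelin and other actin-binding proteins surround these filaments and desmin links the contractile units to each other. Many of these genes are switched on together by serum response factor and its partner myocardin, which bind a DNA element called the CArG box in their control regions. IL-13 is known to raise the contractility of airways in the mouse, and in asthma the muscle layer of the airway is thickened. Airway and vascular smooth muscle share all 6 genes, and Acta2 and Tagln are also expressed by myofibroblasts, so the arrays do not separate these cell types.

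The RNA held other muscle besides smooth muscle, and 1 saline array stood apart. Skeletal muscle transcripts were bright on every array: Atp2a1, the calcium pump of fast muscle, read between 18186 and 28483, and Myh1, a fast myosin heavy chain, between 17099 and 20339. The summed intensity of the 14 skeletal muscle genes on the array was 147992 and 193102 with saline and 160683 to 192899 with IL-13, and of these genes only Myh2 was dim, at 15.3 to 63.8. Several heart muscle transcripts were high on saline 6 and, to a lesser extent, IL-13 18, with Myl7, an atrial myosin light chain, at 7554 and 3322 there and at most 224.8 on the other 3 arrays. Others were not: Myl2 and Myl3, ventricular light chains also made by slow skeletal muscle, were lowest on saline 6 (216.4 and 8692), and Actc1 was highest on IL-13 6. The sum over the 13 heart muscle genes was 25683 and 45338 with saline and 27777 to 36310 with IL-13. Salivary gland transcripts were bright on saline 6 alone, where Smr3a read 23003, against at most 28.6 elsewhere. As a check of the labelled tissue, Scgb1a1, the secretory protein of airway club cells, read between 22019 and 31029 on the 5 arrays, whereas Sftpc, the surfactant protein that marks alveolar type II cells, read 17170 on IL-13 18, 2617 on saline 6 and only 194.2 to 300.4 on the other 3 arrays. Scgb1a1 was thus bright throughout and Sftpc differed widely between arrays, with 1 gene behind each statement. Of 2 other surfactant protein genes, looked at after the values were seen, Sftpb was also highest on IL-13 18 (2113). Sftpd was dim and had another order, at 121.2 on saline 6, 174.7 on IL-13 18 and 217.2 on IL-13 6. In such bulk RNA, fewer cells of a type and less RNA per cell cannot be told apart.

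None of the 6 genes passed the test of IL-13 against saline, and the IL-13 and saline arrays overlapped for every one of them. Of all tested probe sets 0.0512% passed that test in either direction (limma with Benjamini-Hochberg adjustment over 7811 probe sets, threshold 0.05), and the arrays of the treatments did not overlap for 25.7%. No gene of a reference list of 7 IL-13 induced genes passed, with 6 higher and 1 lower by mean. All 7 nevertheless had an unadjusted limma p under 0.05, as 9.26% of all tested probe sets did. Their arrays did not overlap between the treatments either. This list was chosen with earlier results of these data known. Clca1 differed by 4.67 on the log2 scale (limma adjusted p 0.260) and Chil3 by 4.39 (limma adjusted p 0.185). Not passing therefore does not show that a gene was unchanged. For all 6 genes the 2 arrays numbered 48 stood apart from the other 3, a pattern picked after the values were seen. None of the 6 passed a test of title number 6 against 48 either (limma adjusted p 0.590 to 0.792). Acta2, Actg2, Tagln, Cnn1 and Myh11 were each lowest on the 2 arrays numbered 48, of saline and of IL-13, and higher on the other 3, while Des was highest on those same 2 arrays. The spread was modest: the highest array exceeded the lowest by 1.25-fold for Acta2, the least of the 6, and by 1.67-fold for Cnn1, the most. The values below are intensities scaled so that all arrays share one trimmed mean. They are compared between arrays within a probe set only, because the intensity of one probe set cannot be set against that of another.

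**Figure D1:**
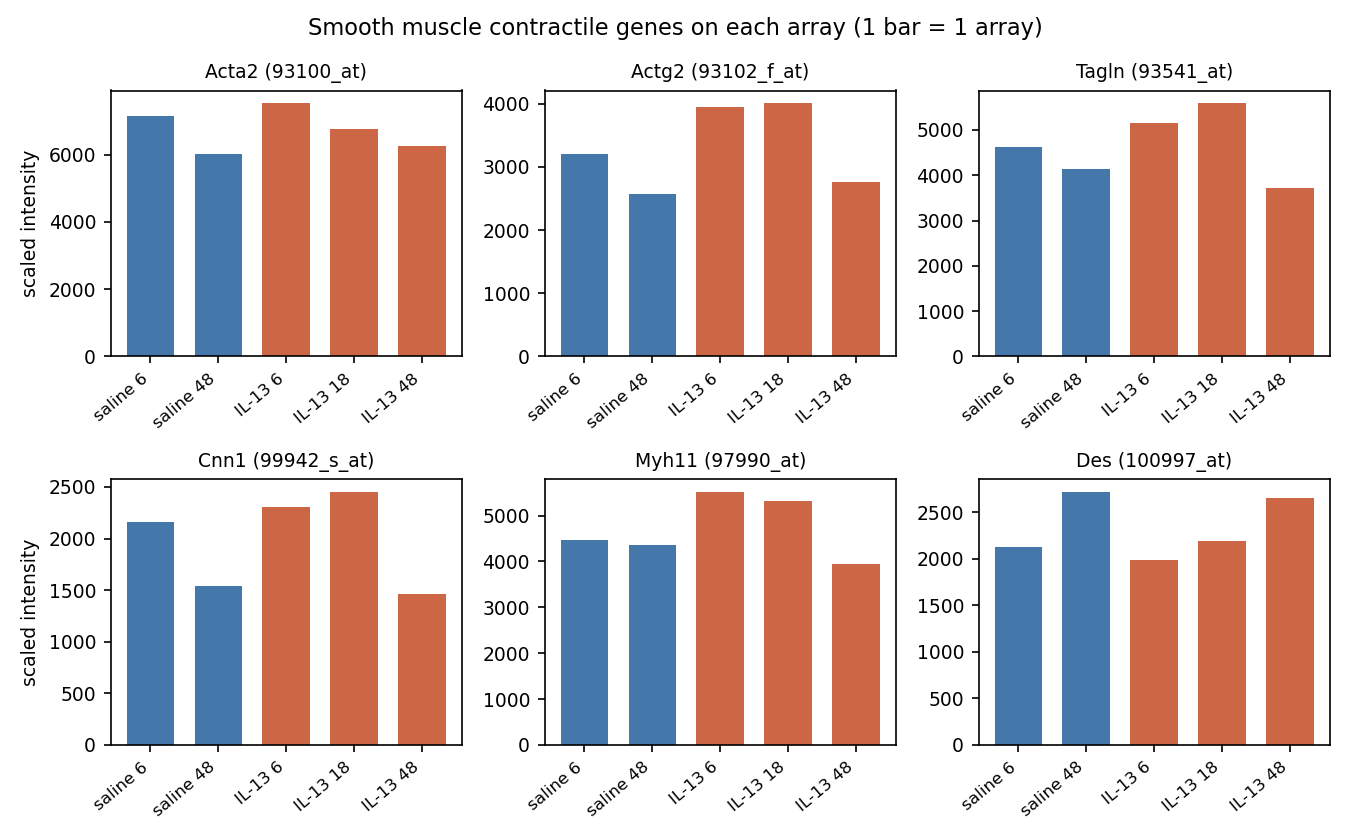
Scaled intensity (y axis, linear, from 0) of each of the 6 smooth muscle genes on each of the 5 arrays (x axis), with saline in blue and IL-13 in orange; 1 bar is 1 array and there are no error bars because no combination was repeated. Acta2, Actg2, Tagln, Cnn1 and Myh11 are lowest on saline 48 and IL-13 48, and Des is highest there.

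Acta2 encodes alpha smooth muscle actin, the most widely used marker of smooth muscle and of myofibroblasts. Its probe set, 93100_at, read 7148 on saline 6 and 6009 on saline 48, while the IL-13 arrays gave 7530.4, 6773 and 6257 at numbers 6, 18 and 48. The IL-13 arrays lay between and just above the saline arrays. The mean was 6579 ± 806 (SD, n = 2) with saline and 6853 ± 640.4 (SD, n = 3) with IL-13, and the log2 difference was 0.06 (SE 0.18, 95% interval -0.38 to 0.50, limma adjusted p 0.935). The interval leaves room for a difference larger than the spread between the saline arrays (0.25 on the log2 scale) in either direction.

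The start of the Acta2 gene is shown because it carries paired CArG-like elements of the kind bound by serum response factor. The stretches below are the 250 bases before the start of transcription, 5′ to 3′, from RefSeq on GRCm38.p6, which holds 3 of the 6 genes in the promoter table used here: Acta2 at chr19:34255374-34255623 on the minus strand, Cnn1 at chr9:22099003-22099252 on the plus strand and Des at chr1:75360042-75360291 on the plus strand. Capitals mark CArG-like boxes.
Acta2: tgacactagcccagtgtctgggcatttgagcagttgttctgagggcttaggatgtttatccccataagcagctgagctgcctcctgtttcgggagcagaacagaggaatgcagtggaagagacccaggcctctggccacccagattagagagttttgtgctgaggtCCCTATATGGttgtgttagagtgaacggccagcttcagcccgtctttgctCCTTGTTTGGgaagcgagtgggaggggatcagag
Cnn1: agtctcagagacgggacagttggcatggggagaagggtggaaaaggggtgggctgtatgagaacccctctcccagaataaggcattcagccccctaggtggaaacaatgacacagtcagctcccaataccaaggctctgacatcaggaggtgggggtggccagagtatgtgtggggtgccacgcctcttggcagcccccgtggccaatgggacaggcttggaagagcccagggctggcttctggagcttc
Des: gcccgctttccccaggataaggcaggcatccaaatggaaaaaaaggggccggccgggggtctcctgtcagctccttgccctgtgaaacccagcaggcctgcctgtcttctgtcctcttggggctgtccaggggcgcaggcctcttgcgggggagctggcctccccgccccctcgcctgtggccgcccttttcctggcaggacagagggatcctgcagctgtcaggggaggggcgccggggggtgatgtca
A CArG box begins with CC, ends with GG and has 6 letters between them that are all A or T. A CArG-like box was defined here as the same with 1 of those 6 letters being C or G. Both definitions read alike on either strand and no box can count under both. No CArG box lies in any of the 3 windows. Acta2 has 2 CArG-like boxes, CCCTATATGG starting 84 bases and CCTTGTTTGG starting 34 bases before the start of transcription. Of all 32851 windows of this length in the table, 1.47% hold a CArG box, 7.24% a CArG-like box and 0.548% at least 2 CArG-like boxes. Neither box lies in the Cnn1 or Des window, which says only that these letters are not within 250 bases, since elements may also lie farther out or within introns.

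Actg2 encodes gamma smooth muscle actin, an actin of visceral smooth muscle. Its probe set, 93102_f_at, read 3209.7 for saline 6 and 2575 for saline 48, while the IL-13 arrays gave 3948, 4008 and 2759 at numbers 6, 18 and 48. The arrays IL-13 6 and IL-13 18 exceeded both saline arrays, and IL-13 48 lay between them. Of the 6 genes it had the largest difference between the treatments, 0.29 on the log2 scale (SE 0.23, 95% interval -0.27 to 0.86, limma adjusted p 0.752), from 2892 ± 449 (SD, n = 2) with saline to 3572 ± 704 (SD, n = 3) with IL-13. The ending f_at marks a probe set whose probes may also match related transcripts, and the actins are closely related. Acta1, the skeletal muscle actin, read 21734 and 13537 on the saline arrays and 26561, 17733 and 11565 on the IL-13 arrays by rising title number, so it too was higher at number 6 than at 48. Actc1, the heart actin, was highest on IL-13 6 (16254) and lowest on saline 48 (9835) by its brighter probe set, and Actg1, a cytoplasmic actin, stayed between 18768 and 21090 on all 5 arrays. Whether RNA of other actins adds to the signal of 93102_f_at was not tested.

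Tagln encodes transgelin, an actin-binding protein of smooth muscle also known as SM22. Probe set 93541_at read 4625 on saline 6 and 4127 on saline 48, then 5149.8, 5591 and 3725 on the IL-13 arrays numbered 6, 18 and 48. The 3 IL-13 arrays therefore bracketed the saline arrays, with 2 above and 1 below both. Their log2 difference from saline was 0.12 (SE 0.23, 95% interval -0.42 to 0.66, limma adjusted p 0.898).

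Cnn1 encodes calponin, which binds actin and slows the actin-activated turnover of ATP by myosin. Probe set 99942_s_at read 2159 on saline 6 and 1539 on saline 48, while the IL-13 arrays gave 2304, 2454 and 1467 at numbers 6, 18 and 48. Cnn1 was the most variable of the 6 genes in both treatments: saline 6 was 1.40-fold above saline 48 and IL-13 18 was 1.67-fold above IL-13 48. The difference between treatments was 0.15 (SE 0.29, 95% interval -0.54 to 0.84, limma adjusted p 0.899), smaller than the 0.49 between the 2 saline arrays. The ending s_at also marks probes that may match more than 1 transcript. The related calponins had other orders: Cnn2 read 1726 and 1497 on the saline arrays and 1280.1, 1702 and 1551 on the IL-13 arrays, and Cnn3 read 1617 and 2624 on the saline arrays and 3077, 2621 and 2637 on the IL-13 arrays, by rising title number.

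Myh11 encodes the heavy chain of smooth muscle myosin, the motor of contraction and the most specific of these markers. Probe set 97990_at read 4478 on saline 6 and 4351 on saline 48, while the IL-13 arrays gave 5522, 5329 and 3948 at numbers 6, 18 and 48. Its saline arrays were the closest pair of any of the 6 genes, 1.03-fold apart, with IL-13 6 and IL-13 18 above and IL-13 48 below them. The log2 difference was 0.14 (SE 0.21, 95% interval -0.35 to 0.64, limma adjusted p 0.863). It was 0.30 without IL-13 48, 0.081 without IL-13 18 and 0.055 without IL-13 6 (limma adjusted p 0.870 to 0.984), so its size moved with each of these arrays. The cytoplasmic myosin heavy chain gene Myh9 lay the other way, with all 3 IL-13 arrays (4959 to 5439.8) below both saline arrays (6175 and 6403), at a difference of -0.26 (limma adjusted p 0.681).

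Des encodes desmin, the intermediate filament protein of smooth, skeletal and heart muscle. Probe set 100997_at read 2126 on saline 6 and 2722 on saline 48, while the IL-13 arrays gave 1984, 2187 and 2650.3 at numbers 6, 18 and 48. Both number 48 arrays were at the top, where they were at the bottom for the other 5 genes. The difference between treatments was -0.09 (SE 0.21, 95% interval -0.60 to 0.41, limma adjusted p 0.919). Desmin is also abundant in skeletal muscle, whose transcripts were bright on all 5 arrays, so the intensity of Des cannot be assigned to smooth muscle alone. Skeletal muscle genes did not share one order: Ckm, the creatine kinase of muscle, was highest on both number 48 arrays (8437 and 8556) as Des was, by its brighter probe set, whereas Acta1 was lowest there. The summed intensity of cartilage transcripts, picked for its order after the values were seen, ran nearly in the order of Des. For the 6 cartilage genes on the array it was 3106 on saline 6 and 6753 on saline 48, while the IL-13 arrays gave 4106, 4773 and 5525 at numbers 6, 18 and 48. The brighter Acan and Chad weigh most in this sum, and they and Col11a1 had its order. Col9a1 and Col2a1 did not. Col9a1 was higher on saline 6 (659.8) than on saline 48 (546.7). Col2a1, which was dim, was lowest on IL-13 48 (86.4). The part of cartilage in the values of Des was not tested.

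Over the 6 probe sets, 5 had a higher mean with IL-13 and 1 (Des) a lower one, where 55.3% of all tested probe sets had a higher mean. The median log2 difference was 0.13, against 0.04 over all tested probe sets and 0.00077 over the 1558 at least as bright as the dimmest of the 6. The median over the 6 genes lay between 0.04 and 0.30 when 1 array was left out, with 0.04 without IL-13 18, 0.06 without saline 48, 0.06 without IL-13 6, 0.19 without saline 6 and 0.30 without IL-13 48. At an unadjusted p under 0.05 the count was also 0 of 6, where 9.26% of all tested probe sets passed. The intervals over all 5 arrays end at 0.86 or below on the log2 scale, but they widen when 1 array is left out: without saline 6, Cnn1 differed by 0.40 (SE 0.34) and Actg2 by 0.45 (SE 0.28), which does not leave out a doubling.

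**Figure D2:**
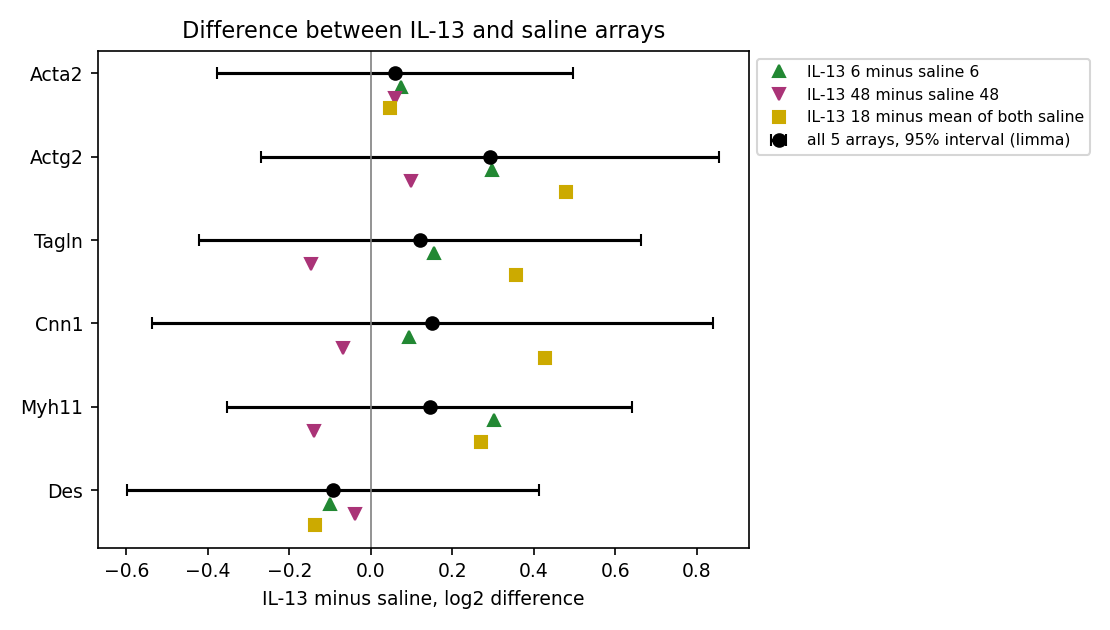
Log2 difference between IL-13 and saline (x axis) for each of the 6 genes (y axis); black circles and bars are the limma estimate over 5 arrays with its 95% interval, and coloured symbols are single-array differences for title numbers 6, 48 and 18, which have no test. All 6 intervals include 0, and the number 48 symbols of Tagln, Cnn1 and Myh11 lie on the opposite side of 0 from their number 6 symbols.

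Between arrays of the same title number, with 1 array on each side and no test, no gene reached a 2-fold difference. At title number 6, Myh11 was 1.23-fold and Actg2 1.23-fold higher on IL-13 6 than on saline 6, Tagln 1.11-fold, Cnn1 1.07-fold and Acta2 1.05-fold higher, and Des was 0.933 times the saline value. At title number 48 the folds were closer to 1 and mixed in direction: Actg2 was 1.07-fold and Acta2 1.04-fold higher on IL-13 48 than on saline 48, whereas Tagln was 0.903 times, Myh11 0.907 times, Cnn1 0.953 times and Des 0.974 times the saline value. Differences of at least 2-fold in either direction, with the higher value above the pooled median of 343, were found for 3.98% of all 12422 probe sets at number 6 and for 1.69% at number 48. Against the geometric mean of both saline arrays, IL-13 18 was 1.39-fold higher for Actg2, 1.35-fold for Cnn1, 1.28-fold for Tagln, 1.21-fold for Myh11 and 1.03-fold for Acta2, and 0.909 times for Des. Saline was not given an array of number 18, so this last comparison mixes treatment with title number.

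The contrast between title numbers was larger than that between treatments, and it pointed the same way in saline and in IL-13 for all 6 genes. Saline 6 exceeded saline 48 by 1.40-fold for Cnn1, 1.25-fold for Actg2, 1.19-fold for Acta2, 1.12-fold for Tagln and 1.03-fold for Myh11. In the IL-13 arrays, which are separate from the saline arrays, IL-13 6 exceeded IL-13 48 by 1.57-fold for Cnn1, 1.43-fold for Actg2, 1.40-fold for Myh11, 1.38-fold for Tagln and 1.20-fold for Acta2. Des had the opposite order in both, with saline 48 1.28-fold above saline 6 and IL-13 48 1.34-fold above IL-13 6. The array IL-13 18 lay near IL-13 6, from 0.899 times its value for Acta2 to 1.10-fold for Des. The count of genes higher at number 6 in both treatments was 5 of 6, where 24.3% of all tested probe sets showed that order. The count lower in both was 1 of 6, where 32% of all tested probe sets showed that. This contrast was chosen after the values had been seen, and it is a description.

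A limma fit over the 4 arrays numbered 6 and 48, with treatment as a term and 1 residual degree of freedom, put a number on that contrast. Title number 6 minus 48 was 0.57 on the log2 scale for Cnn1 (SE 0.21, adjusted p 0.590), 0.42 for Actg2 (SE 0.22, adjusted p 0.668) and -0.39 for Des (SE 0.21, adjusted p 0.679). It was 0.32 for Tagln, 0.26 for Myh11 and 0.26 for Acta2, with adjusted p from 0.738 to 0.792. None of the 6 passed, and of all 7638 probe sets in this fit 0% passed. Cnn1 alone of the 6 had an unadjusted p under 0.05 (0.0413), as did 8.34% of all probe sets. The median over the 6 was 0.29, against -0.04 over all probe sets tested. The sum of cartilage intensities was lower on the number 6 array in both treatments (3106 against 6753 with saline, 4106 against 5525 with IL-13). Of the 5 cartilage genes tested, 4 were lower in both treatments. The sum of skeletal muscle intensities was higher (193102 against 147992 and 192899 against 163248). With saline, the median skeletal muscle gene differed by 0.22 on the log2 scale, with 11 of 13 higher. With IL-13, however, it differed by 0.07, with 7 of 13 higher. In both treatments 6 of 13 skeletal muscle genes were higher and 1 was lower. The heart muscle sum was higher too (45338 against 25683 and 34215 against 27777). With saline the median heart gene differed by 2.19 on the log2 scale, with 9 of 11 higher. With IL-13 most of the gap in the sum was Actc1 (16254 against 10524), and the median heart gene differed by 0.19, with 6 of 11 higher. Whether these tissues play a part in the contrast for the smooth muscle genes was not tested.

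**Figure D3:**
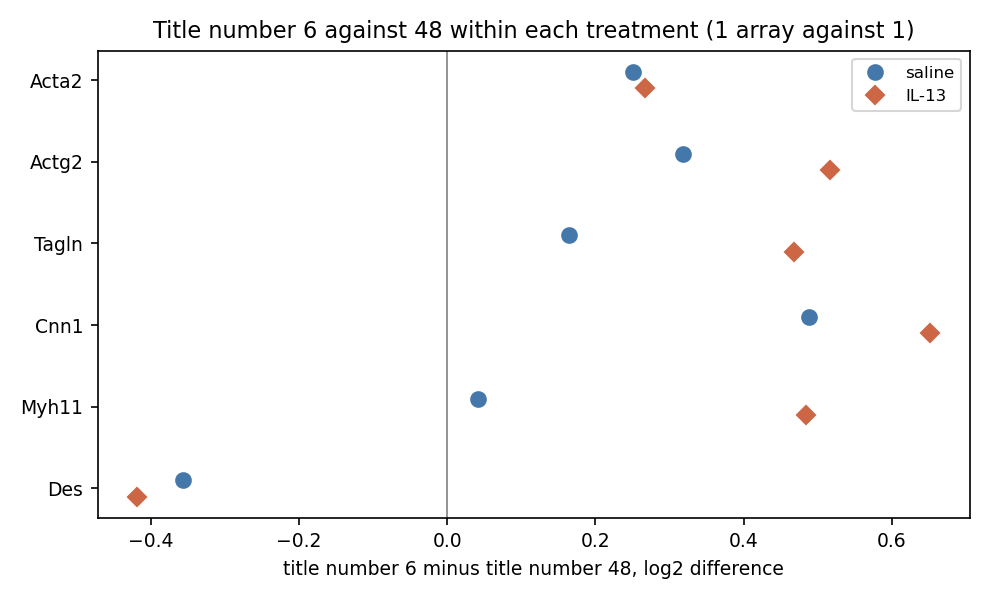
Log2 difference between title number 6 and title number 48 (x axis) for each of the 6 genes (y axis), within saline (blue circles, saline 6 minus saline 48) and within IL-13 (orange diamonds, IL-13 6 minus IL-13 48); each symbol is 1 array against 1, with no error. Symbols of Acta2, Actg2, Tagln, Cnn1 and Myh11 are above 0 in both treatments, and those of Des are below 0 in both.

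Among themselves, the 6 genes differed in how closely their profiles matched. Likeness was measured as the root mean square difference between log2 profiles, each centred on its own mean over the 5 arrays, where 0 is an identical profile. Tagln and Myh11 were the closest pair at 0.072, followed by Actg2 with Tagln at 0.102 and Actg2 with Cnn1 at 0.11. Acta2 had the flattest profile and lay nearest to Myh11 (0.129). Des was the farthest from every other gene, from 0.299 with Acta2 to 0.481 with Cnn1. These distances rest on 5 arrays that all genes share and describe them only.

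The other genes of the contractile apparatus were described from a list of 21, of which 13 had a probe set with 1 symbol and 11 were tested. None passed the test of IL-13 against saline (adjusted p 0.505 to 0.992), while 1 of 11 had an unadjusted p under 0.05, against 9.26% of all tested probe sets. Of the 11, 9 had a higher mean with IL-13 and 2 a lower one, each by its brightest probe set. This was close to the split of the 6 genes above, and under quantile normalization it was 11 and 0. Some other probe sets lay lower with IL-13. Csrp1, counted as higher at 0.10, was at -0.19 on 92608_at. Actn1, counted as lower at -0.007, was at -0.99 on 92280_at. There all IL-13 arrays (300.0 to 398.3) lay below both saline arrays (633.9 and 803.7). For 7 of the 11 genes every IL-13 array was higher than either saline array, where 14.7% of all tested probe sets did. The median difference was 0.26 on the log2 scale, and from 0.17 (without saline 6) to 0.36 (without saline 48) when 1 array was left out. Vcl, the gene of vinculin, which anchors actin filaments at the cell membrane, read 2424 and 2891 on the saline arrays and 3395, 4227 and 3922 on the IL-13 arrays, a difference of 0.53 (SE 0.19, adjusted p 0.505). Pdlim7, a scaffold protein of actin filaments, differed by 0.55 (SE 0.26) on 102845_at, by 0.28 on 160837_at and by 0.11 on 160367_at, so its probe sets disagreed in size, and a further one was dim on all arrays. Ppp1cb, a catalytic subunit of the phosphatase that removes phosphate from myosin light chains, differed by 0.36 (SE 0.20). Smtn, which encodes smoothelin, a protein of contractile smooth muscle, differed by 0.30 (SE 0.18).

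The remaining 3 of those 7 genes, named after their values were seen, were Mylk, Tpm1 and Tpm2. Mylk, the kinase that starts smooth muscle contraction, read 5238 and 6114 on the saline arrays and 6689, 7214 and 6291 on the IL-13 arrays, a difference of 0.25 (SE 0.17, limma adjusted p 0.720). The tropomyosin genes differed by 0.27 (Tpm1) and 0.20 (Tpm2), and Tpm2 has a second probe set that was dim on all arrays (12.5 to 88.8). Myl9, the regulatory light chain of smooth muscle myosin, overlapped between the treatments and differed by 0.26 (SE 0.21). Title number did not order this list as it did the 6 genes, with 1 of 11 higher at number 6 in both treatments and 5 of 11 lower. The median of saline 6 minus saline 48 was -0.16 on the log2 scale and that of IL-13 6 minus IL-13 48 was -0.02. Several of these genes, Vcl, Ppp1cb and Pdlim7 among them, are expressed in many cell types and are not particular to smooth muscle.

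**Figure D4:**
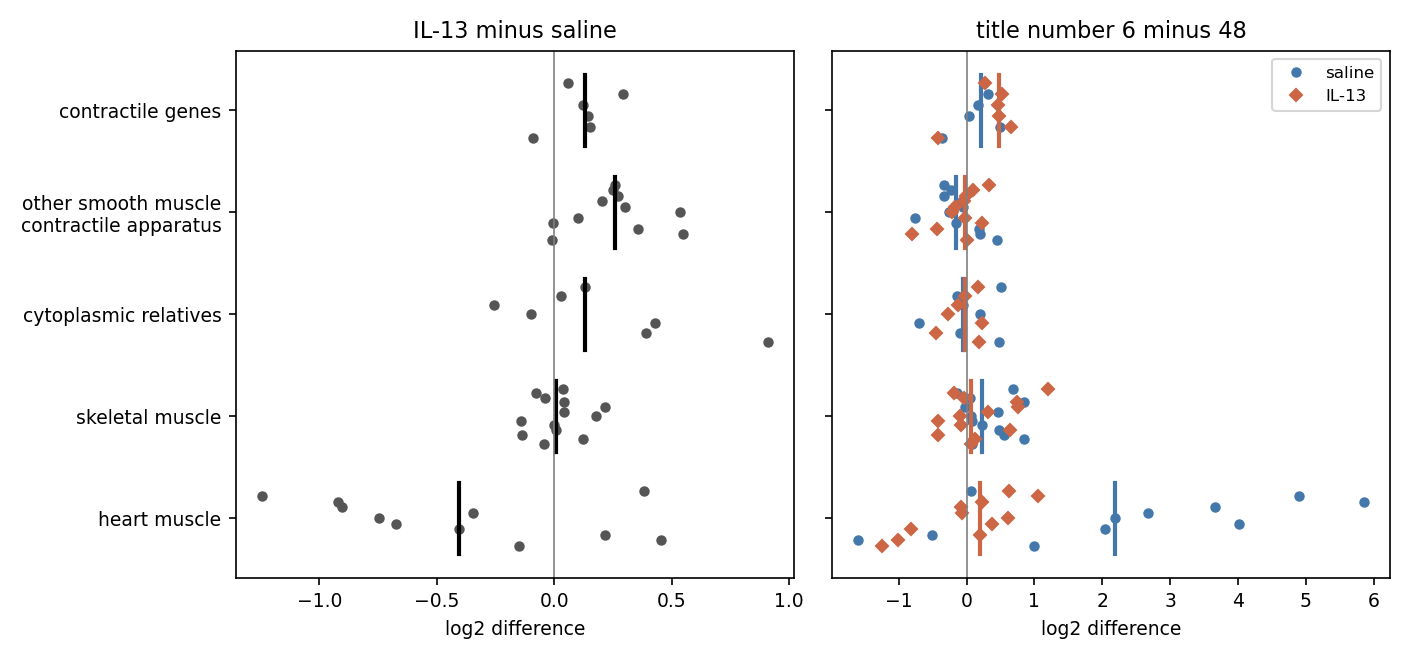
Log2 differences (x axes) of single genes (points) in 5 gene lists (y axis), as IL-13 minus saline over 5 arrays (left) and as title number 6 minus 48 within saline (blue circles) and IL-13 (orange diamonds) (right); vertical bars are list medians. On the left the other contractile apparatus genes have a median of 0.26 and the 6 contractile genes 0.13; on the right the medians of the 6 are 0.21 in saline and 0.48 in IL-13, and heart muscle genes reach 5.86 in saline.

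Regulators of smooth muscle were sparsely measured. Of 10 transcription factors listed, 7 were on the array with 1 symbol and 5 were tested, and none passed (adjusted p 0.440 to 0.883). Mrtfa, a coactivator of serum response factor that responds to free actin, had all 3 IL-13 arrays (436.8 to 491.3) below both saline arrays (630.6 and 742.1), at -0.58 (SE 0.17, limma adjusted p 0.440). Klf4, a factor that represses smooth muscle genes in cultured cells, read 1419 and 2588 on the saline arrays and 2113, 2732 and 3175 on the IL-13 arrays by rising title number, a difference of 0.46 (SE 0.31, limma adjusted p 0.708). It was lower at number 6 than at 48 in both treatments. Of 20 genes for calcium handling, channels and receptors, 10 were on the array and 6 were tested, of which all 6 had a higher mean with IL-13 and none passed (adjusted p 0.481 to 0.966). Without saline 6 only 3 of 6 were higher, and the median went from 0.24 to 0.12; without IL-13 18 it was 0.096. The other probe sets of one of them, Rhoa, a switch of actin contraction, lay the other way (-0.30 and -0.045, against 0.032). Gucy1b1, a subunit of the nitric oxide receptor that relaxes smooth muscle, had the largest difference at 1.15 (SE 0.38, limma adjusted p 0.481), and it was dim, reading 96.7 and 167.1 on the saline arrays and 210.6, 438.4 and 242.7 on the IL-13 arrays. Both saline values lay under the filter of 210, so Gucy1b1 was tested, and counted among the 6, only through its IL-13 arrays. The L-type calcium channel gene Cacna1c differed by 0.28 and the caveolin gene Cav1 by 0.29.

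Among genes of fibroblasts and pericytes, cells that lie beside smooth muscle and share some of its genes, all 11 tested had a higher mean with IL-13 and none passed (adjusted p 0.361 to 0.990). The median was 0.49, and 0.23 without saline 6, where 9 of 11 were higher. In 6 of 11 no IL-13 array was as low as either saline array, where 14.7% of all tested probe sets showed that. Tcf21, a fibroblast transcription factor, differed by 0.94 (SE 0.30) and Rgs5, a pericyte marker, by 0.89 (SE 0.23). Both were dim. Tcf21 read 175.2 and 189.0 on the saline arrays and 281.5 to 517.0 on the IL-13 arrays. Rgs5 read 206.9 and 143.3 on the saline arrays and 288.0 to 371.6 on the IL-13 arrays. Their saline values lay under the filter of 210, so both entered the test and the counts above only through their IL-13 arrays. Cytoplasmic relatives of the contractile genes had a median of 0.13 over 7 tested, with 5 higher and 2 lower and none past the test (adjusted p 0.349 to 0.966); the median was 0.078 without saline 6 and 0.058 without IL-13 6. Vim, the intermediate filament gene of mesenchymal cells, differed by 0.91 (SE 0.22), and Tagln2, the transgelin of other cell types, by 0.39 (SE 0.20). Vim was dim, at 133.9 and 96.6 on the saline arrays and 186.8 to 246.8 on the IL-13 arrays. It is among the 5 higher, and it passed the filter of 210 only through IL-13 6 and IL-13 18. The skeletal muscle list had a median of 0.01 over 13 tested (7 higher, 6 lower) and the heart muscle list -0.40 over 11 tested (3 higher, 8 lower), with no gene of either list past the test (adjusted p 0.815 to 0.996 and 0.666 to 0.936). Both medians turned with single arrays. That of heart muscle was 0.51 without saline 6 (8 of 10 higher), -1.69 without saline 48, -0.90 without IL-13 18 and -0.0077 without IL-13 6. That of skeletal muscle was 0.21 without saline 6, -0.18 without saline 48 and -0.069 without IL-13 6.

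The genes whose profiles lay closest to the mean profile of the 6 were sought among 5808 tested genes that had at least 0.5 times the standard deviation of that profile, with 1 probe set per gene. By root mean square difference of centred log2 values over the 5 arrays they were Fndc1 (0.031), Rce1 (0.04), Rpl37a (0.04), Cyb5b (0.043), Tmem176b (0.05) and Hap1 (0.051). Fndc1, a fibronectin domain protein, read 1062 and 915 on the saline arrays and 1145, 1118 and 908 on the IL-13 arrays by rising title number. Tmem176b, a membrane protein, read 6396 and 5584 on the saline arrays and 7445, 6995 and 5400.4 on the IL-13 arrays. Every one of these genes lay closer to the mean profile than any of the 6 smooth muscle genes did, among which Myh11 was the nearest at 0.062 and Des the farthest at 0.317. This says little about the smooth muscle genes. The others were picked as the closest of 5808 over 5 arrays, and the mean profile includes Des. None of the 6 closest genes is on the lists of contractile or regulatory genes of smooth muscle used here.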

How the data were processed

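The authors deposited 1 table of intensities on a linear scale for 12488 probe sets on 5 arrays; the sources used here do not give the software, background correction or scaling target. The 2% trimmed means of the deposited values lie between 800.389 and 800.471. After leaving out 66 control probe sets, each array was brought to the same 2% trimmed mean, the 20th percentile over all values (55.3) served as a floor, and values were turned to log2. The 40th percentile over all values (210), to be exceeded on 2 or more arrays, was the filter for testing with limma 3.58.1 in R 4.3.3 (lmFit and eBayes, treatment as the only term, 3 residual and 3.46 prior degrees of freedom, two-sided). The fit was tested on simulated data. The annotation paired 10833 probe sets with 1 symbol and 396 with several, and left 1193 unnamed; 10817 were updated through the gene number. Where a listed gene has several probe sets, its brightest (highest mean log2) stands for it. The title of IL-13 6 ends in another suffix than the other 4, with no meaning given. The number of arrays limits the precision. Alternatives were other scalings, floors, filters and variance settings, title number as a block, and each array left out. The members, lists and tests were chosen with earlier results of these data known. Named were all members, up to 4 genes of each list by size of difference, any gene of the skeletal muscle, heart muscle and cartilage lists, and the 6 closest profiles, with further genes said to be chosen after their values were seen or given beside a related member.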

Additional observations from a re-analysis of the deposited data

Results flagged for a closer look

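For 3 of the 6 genes the difference between IL-13 and saline pointed one way at title number 6 and the other way at 48. The difference at number 6 less that at number 48, on the log2 scale, was 0.44 for Myh11 (0.30 and -0.14), 0.30 for Tagln (0.15 and -0.15) and 0.16 for Cnn1 (0.09 and -0.07). Each rests on 1 array per combination, so the difference between the title numbers was not tested.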

How the results depend on the processing

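The count of smooth muscle genes past the threshold was 0 under every alternative to the fit that kept both saline arrays. Few probe sets passed there at all, at most 4 of 7811 (values as deposited), so 0 of 6 says little about these genes. Their median difference stayed above 0 under all 14 alternatives (0.04 to 0.30), but floors, filters and variance settings could not move it. Among all the listed genes outside the 6, the 7 IL-13 induced reference genes included, 0 of 92 passed in the main fit. Leaving out 1 IL-13 array gave 0 as well. With 1 saline array left, that group has no spread of its own, so only sizes are given and the count of 0 is not claimed there. Amy1 differed by -6.02 and Clca1 by 2.94 without saline 48, and Clca1 by 6.40 without saline 6. Amy1 is a salivary gland gene that was bright on saline 6 alone (25178, against at most 447.5 elsewhere). The signs of 3 genes turned when 1 array was left out: Acta2 differed by -0.065 without saline 48 and -0.0098 without IL-13 6, Cnn1 by -0.093 without saline 48, and Des by 0.086 without saline 48 and 0.00097 without IL-13 6; the cause was not tested. Leaving out 1 array gave ranges of -0.06 to 0.19 for Acta2, -0.09 to 0.40 for Cnn1 and -0.27 to 0.09 for Des. They were 0.13 to 0.47 for Actg2, 0.0035 to 0.30 for Tagln and 0.06 to 0.30 for Myh11. With title number as a replicate block over 4 arrays the median was 0.04 and no call changed; whether the numbers pair the arrays could not be checked with 2 pairs. The contrast of title number 6 with 48, added after the data were seen, kept its sign for all 6 genes under 8 scalings, floors, filters and variance settings (Cnn1 0.57 to 0.62, Des -0.39 to -0.34). Only the scalings could change these estimates. Variance settings leave them as they are, and the 6 probe sets lay above every floor and filter. All these settings used the same 4 arrays, so the kept sign is no sign of repeatability. With the other saline array as control the differences at one title number moved by more than the spread for 4 genes, and 3 changed sign at number 48 (Acta2 -0.19, Actg2 -0.22, Des 0.32); those of Tagln and Myh11 kept their sign. Under quantile normalization 11 of 11 other contractile genes had a higher mean with IL-13, against 9. Depth is not known for arrays, and the 6 probe sets lay far above the floor.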
